A study of Mus musculus with 2 samples.

Results

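The gasdermin family was followed across the cells of inflamed mouse colon through 6 of its genes, Gsdmc, Gsdmc2, Gsdmc3, Gsdmc4, Gsdmd and Gsdme, out of 55357 genes in the count tables. The members were taken by symbol, and Gsdmc4 was chosen by its measured counts, which differ strongly between the 2 libraries, so that difference is described here and not tested. Single-cell RNA sequencing had been run on mid-colon of mice that were 7 weeks old, free of specific pathogens, and given 3% DSS (dextran sulfate sodium, which damages colon epithelium when given to mice) for 6 days. Both libraries carry that treatment, strain and genotype are not given in the labels, and no untreated colon was analysed, so no value below is an effect of DSS. The labels number the libraries as repeats 1 and 2 without naming separate animals, so the spread between them may be technical. The main fits take out any shift of a gene that all cell classes of a library share. Each p-value of those fits reflects how far differences between classes vary between the libraries, with a spread partly shared over genes. It does not measure the difference between the libraries itself.

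Gasdermins are pore-forming proteins. A protease cuts the linker between their ends, the freed amino-terminal part inserts into the plasma membrane, and the pores let out small cytosolic proteins such as interleukin-18. Gsdmd is the substrate of the inflammatory caspases Casp1 and Casp4, and Casp8 can cut gasdermin C. Mice carry several neighbouring gasdermin C genes, which are known to be induced in intestinal epithelium by the type 2 cytokines IL-4 and IL-13.

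The 4 gasdermin C genes lie side by side on the minus strand of chromosome 15 between 63775968 and 63912297 (GRCm38, GENCODE M21), a span of 136.3 kb. Gsdmd lies farther along the same chromosome on the plus strand (75862327 to 75867408), and Gsdme lies on the minus strand of chromosome 6 (50188888 to 50263862). The first 90 coding bases are shown to make plain how alike the gasdermin C genes are, with capitals where a base differs from Gsdmc4. They lie within a single exon of each transcript, in exon 2 of 12 for Gsdmc4, at chr15:63902841-63902930.
Gsdmc4: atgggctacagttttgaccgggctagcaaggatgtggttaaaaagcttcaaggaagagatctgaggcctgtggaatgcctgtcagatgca
Gsdmc3: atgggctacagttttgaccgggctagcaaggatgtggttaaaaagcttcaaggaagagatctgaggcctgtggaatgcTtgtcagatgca
Gsdmc2: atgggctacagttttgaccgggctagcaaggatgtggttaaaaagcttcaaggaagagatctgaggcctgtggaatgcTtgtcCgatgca
Gsdmc: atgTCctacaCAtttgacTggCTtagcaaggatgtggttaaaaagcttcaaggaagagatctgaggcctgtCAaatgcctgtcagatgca
Gsdmc3 differed from Gsdmc4 at 1 of these bases, Gsdmc2 at 2 and Gsdmc at 9. A 3' assay reads the other end of the transcript, so the last 90 coding bases, stop codon included, are given for the 3 genes that were detected well.
Gsdmc4: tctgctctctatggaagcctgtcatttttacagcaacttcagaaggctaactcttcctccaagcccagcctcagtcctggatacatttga
Gsdmc3: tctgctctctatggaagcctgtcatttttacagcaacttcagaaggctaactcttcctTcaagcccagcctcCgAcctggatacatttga
Gsdmc2: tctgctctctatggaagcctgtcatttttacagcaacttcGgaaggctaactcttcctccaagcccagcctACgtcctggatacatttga
Gsdmc3 and Gsdmc2 each differed from Gsdmc4 at 3 of these bases. Over their whole coding sequences Gsdmc2 and Gsdmc3 were 97.09% identical, each was 93.81% identical to Gsdmc4, and identity between any gasdermin C gene and Gsdmd or Gsdme was between 56.05% and 59.58%. Of the 90-base words in the last 500 transcript bases, none of Gsdmc4's was shared with another member, but up to 31.4% of Gsdmc2's and up to 18.7% of Gsdmc3's were. Of the 50-base words, 7.98% of Gsdmc4's, up to 55.7% of Gsdmc2's and up to 38.8% of Gsdmc3's were shared. Counts of Gsdmc2 and Gsdmc3 are therefore uncertain to the extent that reads could not be split between them, and the Gsdmc4 counts are so to a smaller extent. Gsdme overlaps Mpp6 on the other strand by 10052 bases. No source used here says whether counting used the strand, and whether Mpp6 reads entered the Gsdme counts was not tested.

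Over all barcodes Gsdmc4 had 8885 UMIs (unique molecular identifiers, one for each captured transcript) in library 1 and 1010 in library 2. Gsdmc2 had 2293 and 521 UMIs, and Gsdmc3 had 498 and 89. Gsdmd was even, with 9252 and 8507 UMIs, and Gsdme had 941 and 1402. Gsdmc itself was close to absent, with 3 UMIs in library 1 and 0 in library 2. All 3 detected gasdermin C genes were far lower in library 2, the larger library, while Gsdmd was slightly lower and Gsdme higher there.

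The libraries held 76622643 and 94204110 UMIs in 6597 and 9611 barcodes, of which 5398 and 8379 were kept as cells after filters on genes, mitochondrial share and doublets. Only 18 barcodes occurred in both. Cells were clustered without the gasdermin and pathway genes and named from marker genes, and every class name below means cells like that type by those markers. Library 1 held 1809 epithelial, 1672 lymphoid, 860 mononuclear phagocyte (dendritic cells included) and 439 neutrophil cells, and library 2 held 1183, 2546, 2722 and 931. Sums of UMIs per library and class were compared with edgeR's quasi-likelihood test with the library as a block, and levels are CPM, the UMIs of a gene per 1000000 UMIs of the class. Counting intervals and limits cover counting error only.

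Gsdmc4 and Gsdmc2 were epithelial transcripts, Gsdme was highest in neutrophils, and no single class stood alone for Gsdmd. Of the 4 members tested across 10 classes, 3 had a source class, meaning that the class with the highest mean passed the test against each of the others. That call rests on the largest of the class's 9 p-values, and unless a pair is named, an adjusted p beside a lead below is that of the call. Of all 13958 genes tested, 34.0% had one, 8.91% of all in epithelium and 8.19% in neutrophils. Gsdmc and Gsdmc3 fell below the filter on low counts in this fit. Gsdmc2 passed that filter only through its epithelial sums, so its source class is not independent of the filter.

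In epithelial cells Gsdmc4 stood at 187.9 CPM in library 1 and 21.4 in library 2. The next level in library 1 was 12.7 CPM in B cells, from 6 UMIs, and in library 2 it was 9.39 CPM in mast cells, from 2 UMIs. Epithelium was above each of the other 9 classes within each library, although its level in library 2 was not far above the library 1 levels of B and mast cells. Its lead over the next class in the fit, neutrophils, was 3.37 ± 0.30 on the log2 scale (SE, edgeR adjusted p = 9.3e-10 for that pair and 3.3e-06 for the call). Gsdmc2 stood at 47.6 and 10.4 CPM in epithelium, with a lead of 3.30 ± 0.52 over B cells (edgeR adjusted p = 2.1e-05 for that pair and 8.4e-05 for the call). Its highest level in another tested class was 4.22 CPM, in B cells of library 1. The call thus describes a gene that epithelium alone brought into the fit. Gsdmc3, which was too low to be tested, had 10.2 and 1.81 CPM in epithelium and 92.7% or more of its UMIs there in each library. Without the library block the edgeR adjusted p-values of the calls became 0.105 for Gsdmc4 and 0.080 for Gsdmc2, the highest of their 9 alternatives, whose lowest were 2.3e-14 and 5.2e-08. In library 2 alone, with no test, the leads were 1.47 and 2.15.

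The few gasdermin C counts outside epithelium followed the epithelial ones. In library 1, 97.0% of the Gsdmc4 UMIs of kept cells were in epithelial cells, and in library 2 it was 91.9%. In the other named classes together the level of Gsdmc2, Gsdmc3 and Gsdmc4 was 4.23% of the epithelial level in library 1 and 5.13% in library 2. Within that sum Gsdmc4 made up 78.1% outside epithelium (95% exact binomial interval 72.5 to 83.0) and 76.5% inside it (75.7 to 77.3) in library 1. In library 2 it made up 72.5% (61.4 to 81.9) and 63.6% (60.8 to 66.4). A Gsdmc4 UMI was seen in 5.26% of lymphoid cells of library 1 and 0.825% of library 2, with at most 2 UMIs in a cell, at median depths of 5252 and 4705 UMIs. These low lymphoid shares were taken as background, which was not tested. The most Gsdmc4 UMIs in a mononuclear phagocyte were 12 in library 1 and 3 in library 2, and in a neutrophil 2 and 1. Against the mean of all other classes, the fit called Gsdmc4 higher in neutrophils and lower in fibroblasts (edgeR adjusted p = 0.031 and 0.0030). Whether the counts in these classes are background was not tested either.

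Gsdmd, the executor of inflammasome-driven pore formation, was present in all 10 classes tested. Epithelial cells had 168.3 and 134.6 CPM in libraries 1 and 2, a mean of 151.5 ± 23.8 (SD, n = 2). Mononuclear phagocytes had 62.9 and 87.2, endothelial cells 33.8 and 80.6, and neutrophils 55.5 and 52.5. Levels of 32.0 and 26.9 were found in lymphoid cells, and the lowest levels were those of plasma cells, 5.82 and 10.8. Epithelium was above each of the other 9 classes in both libraries. With trimmed mean of M-values (TMM) scaling, used by the fit, neutrophils came second at 112 ± 11.1 CPM against 159 ± 38.8 in epithelium, and the lead of 0.51 ± 0.23 did not pass (edgeR adjusted p = 0.054 for that pair and 0.095 for the call).

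The order of Gsdmd after these depended on the scale. The TMM factors of neutrophils were 0.465 and 0.505, which raises their levels relative to plain CPM, where each sum is divided by its UMIs alone. With plain CPM the epithelial lead became 1.01, which passed (adjusted p = 0.0012, the lowest of 9 alternatives that reached 0.864). The lead turned negative with no doublets removed (-0.39) and with a 10% mitochondrial limit (-0.18). Against the mean of all other classes, Gsdmd was higher by 2.31 in epithelium, 1.74 in neutrophils and 1.29 in mononuclear phagocytes (edgeR adjusted p = 1.6e-11, 4.7e-08 and 2.0e-06). It was lower by that comparison in lymphoid cells, at -0.67, and in plasma cells, at -1.69 (adjusted p = 0.011 and 0.00079). Of all genes, 36.2%, 28.3% and 29.0% were higher in those 3 classes and 16.7% and 15.8% lower in these 2. Among neighbours in the TMM order, endothelial cells were below phagocytes (adjusted p = 0.040), but phagocytes and neutrophils (0.16), endothelial and B cells (0.057), and the 6 classes from B cells down to plasma cells in neighbouring pairs did not differ past the threshold. Phagocytes, of which library 2 had 2722 and library 1 had 860, held 24.9% and 6.23% of the Gsdmd UMIs there, and epithelium held 63.1% and 86.2%.

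Gsdme, a pore former outside the gasdermin C cluster, had 34.3 and 35.7 CPM in neutrophils of the 2 libraries. Fibroblasts followed with 21.2 and 30.9 CPM and epithelium with 13.0 and 17.6. Mast cells of library 1 (16.4 CPM, from 4 UMIs) and B cells of library 2 (13.4 CPM, from 10 UMIs) fell between the epithelial values. The neutrophil lead over fibroblasts was 1.62 ± 0.25 with TMM scaling (log2, edgeR adjusted p = 7.8e-06 for that pair and 3.9e-05 for the call). With plain CPM it was 0.38 and did not pass (adjusted p = 0.370, the highest of 9 alternatives, the lowest being 2.7e-09). A Gsdme UMI was found in 18.7% and 16.7% of neutrophils. In smooth muscle cells or pericytes no Gsdme UMI was found among 24 and 29 cells, and epithelium held 66.6% and 52.0% of all Gsdme UMIs.

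**Figure D1:**
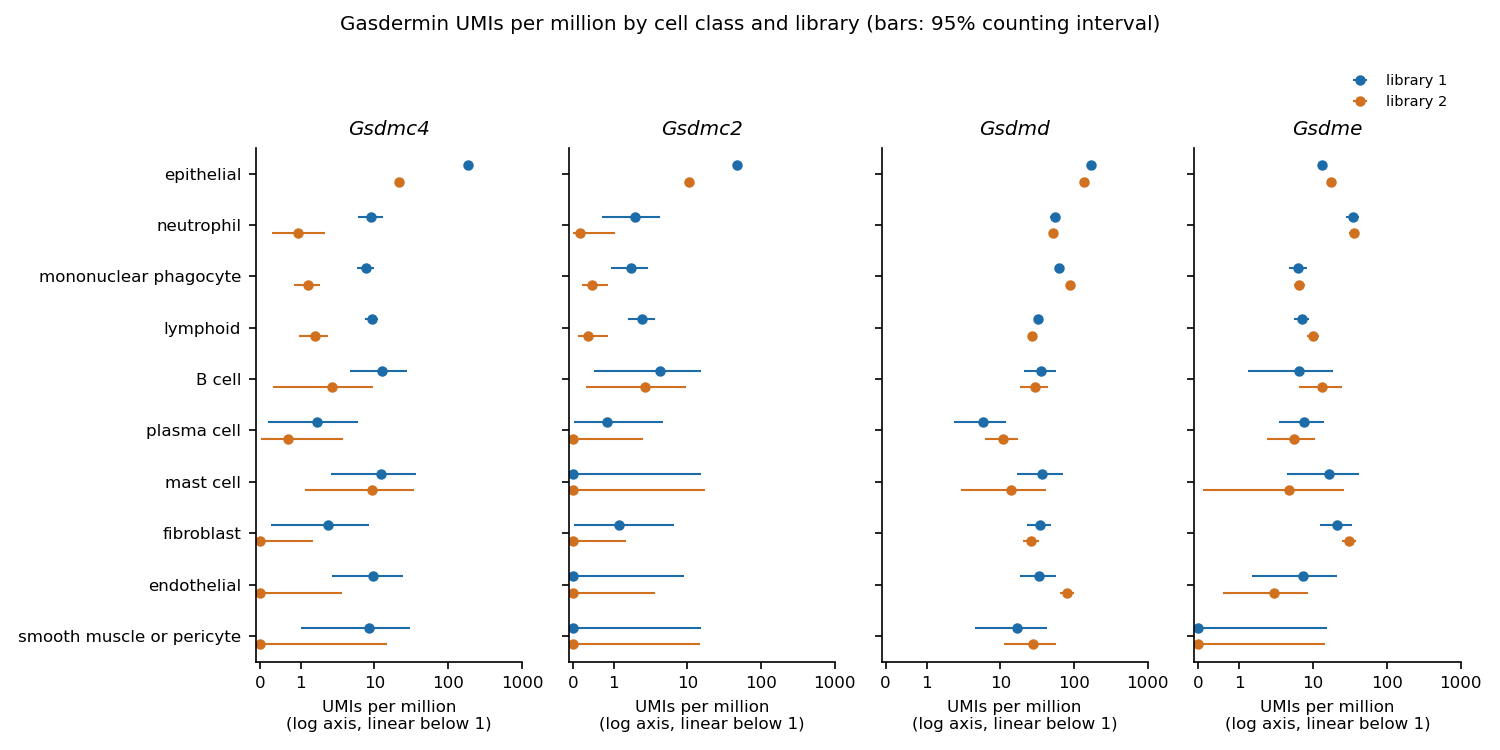
CPM (log axis, linear below 1) of Gsdmc4, Gsdmc2, Gsdmd and Gsdme in 10 cell classes, 1 point for each library with its 95% counting interval. Gsdmc4 in epithelium sits at 187.9 in library 1 and 21.4 in library 2, while the 2 points of Gsdmd and Gsdme lie close together in epithelium and neutrophils.

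Within epithelium, Gsdmd, Gsdmc4, Gsdmc2 and Gsdmc3 were higher in colonocytes, the absorptive cells, than in undifferentiated crypt cells or goblet cells, the mucus producers. Gsdmc was too low to be tested. Without the colonocyte subcluster e3, described below, Gsdmc3 lost its call over undifferentiated cells, and Gsdmc2 levels were not higher in library 1. Gsdmc4 was not high in all colonocytes, and the Aqp8-rich subcluster e0 lay below the undifferentiated subcluster e6. Colonocytes numbered 1152 and 756, undifferentiated cells 200 and 235, and goblet cells 141 and 120 in libraries 1 and 2. The names rest on marker genes, so marker levels are given as a description. Aqp8, a water channel of surface colonocytes, stood at 1527 and 819 CPM in colonocytes against 24.4 and 14.6 in undifferentiated cells, and the mucin Muc2 at 12980 and 9590 CPM in goblet cells. Not all colonocyte subclusters were rich in Aqp8, and those named e3 and e4 below had 138 and 38.4 CPM, and 287 and 249.8 CPM. Of 5 members tested, 4 were higher in colonocytes than in undifferentiated cells, and 39.2% of 13840 genes were. The contrast itself thus moved many genes.

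For Gsdmd the difference was of like size in both libraries. It had 218 and 198 CPM in colonocytes, 45.9 and 49.3 in undifferentiated cells and 47.1 and 43.6 in goblet cells. Colonocytes lay above both other subtypes in each library, while the values of those 2 subtypes overlapped. The colonocyte level was higher by 3.01 ± 0.12 than the undifferentiated one (log2, edgeR adjusted p = 5.0e-07) and by 2.96 ± 0.12 than the goblet one, a contrast in which 36.2% of genes were higher. Goblet and undifferentiated cells differed by 0.05 (adjusted p = 0.82).

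Gsdmc4 had 248.4 and 33.3 CPM in colonocytes, 68.1 and 6.38 in undifferentiated cells and 25.3 and 4.395 in goblet cells. The order was the same in each library, although colonocytes of library 2 lay below undifferentiated cells of library 1. The differences were 2.94 ± 0.15 for colonocytes over undifferentiated cells (log2, adjusted p = 1.3e-06), 4.02 ± 0.18 for colonocytes over goblet cells, and -1.09 for goblet over undifferentiated cells (adjusted p = 0.0070), where 6.34% of genes were lower. Gsdmc2 rose by 2.09 ± 0.20 and Gsdmc3 by 1.49 ± 0.29 in colonocytes over undifferentiated cells (adjusted p = 3.5e-05 and 0.0021). In library 1 a single subcluster, e3, held 212 of the 1152 colonocytes, 873 of their 1322 Gsdmc2 UMIs and 225 of their 274 Gsdmc3 UMIs. Without e3, a setting chosen after seeing these values, Gsdmc3 had 3.27 and 1.75 CPM in colonocytes against 9.73 and 0.926 in undifferentiated cells, so the order was opposite in the libraries and the call was lost (0.31, adjusted p = 0.59, the highest of 10 alternatives). Gsdmc2 then had 29.9 and 10.8 CPM in colonocytes against 30.3 and 4.835, higher in library 2 only by these levels, and the TMM-scaled difference of 1.48 passed (adjusted p = 0.0024). Gsdmc4, at 152 and 29.3 CPM, and Gsdmd, at 259 and 209, stayed above undifferentiated cells in both libraries. Without the library block, Gsdmd alone of the 4 passed, and Gsdmc4, Gsdmc2 and Gsdmc3 had edgeR adjusted p-values of 0.089, 0.091 and 0.261. The first 2 were the highest of 10 alternatives each, and the lowest of the 3 genes were 5.5e-91, 3.6e-38 and 1.9e-09. TMM factors were 0.653 and 0.715 for colonocytes against 1.25 and 1.28 for undifferentiated cells, and plain CPM shifts every gene's difference by -0.89 on the log2 scale (the median of all genes was 0.07 with TMM). With it Gsdmc3 was higher by 0.59 (adjusted p = 0.10) and the other 3 kept their call.

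Gsdme was the exception. Its levels were 9.67 and 15.6 CPM in colonocytes, 16.0 and 20.4 in undifferentiated cells, and 16.0 and 22.2 in goblet cells. With TMM scaling colonocytes were 0.34 ± 0.14 above undifferentiated cells, which did not pass (adjusted p = 0.052), and with plain CPM they were 0.54 below (adjusted p = 0.0083, the lowest of 10 alternatives that reached 0.453). No direction can be given for it.

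The libraries were then set side by side within matched epithelial subtypes. In colonocytes Gsdmc4 was 7.46 times as high in library 1 as in library 2 (95% counting interval 6.86 to 8.13), in undifferentiated cells 10.7 times (8.19 to 14.1), and in goblet cells 5.76 times (3.67 to 9.45). Gsdmc2 was 4.24, 6.26 and 2.46 times as high in the same 3 subtypes and Gsdmc3 5.59, 10.5 and 2.42 times, the last with an interval that reached below 1. Gsdmd had ratios of 1.10, 0.93 and 1.08, and Gsdme of 0.62, 0.79 and 0.72. With 1 library on each side there is no test. Without the subcluster e3 the colonocyte ratio was 5.19 for Gsdmc4, 2.77 for Gsdmc2, 1.87 (below 2-fold) for Gsdmc3, 1.24 for Gsdmd and 0.465 for Gsdme. Without doublet removal the colonocyte ratio of Gsdmc2 was 2.36, and that of Gsdmc3 rose to 8.58 with at least 500 genes per cell and to 9.28 at a coarser clustering.

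The background of such ratios was taken over all genes of a subtype. Of the genes with a mean of at least 20 CPM, 0.96% of 5000 in colonocytes, 0.564% of 6562 in undifferentiated cells and 0.534% of 6370 in goblet cells were at least 2-fold higher in library 1. Gsdmc4 had the highest ratio of all 5000 genes in colonocytes and of all 6562 in undifferentiated cells, and Gsdmc2 ranked 12 in colonocytes. Gsdmc4 was chosen for this difference, and nothing is read from its rank. Of the 48 genes past 2-fold in colonocytes, 10 (20.8%) were also among the 37 in undifferentiated cells (27.0% of those), Gsdmc4, the peroxisomal oxidase Hao2 and the alcohol dehydrogenase Adh1 among them.

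Other features of these cells also differed between the libraries, and their part in the ratio was not tested. Colonocytes of library 1 had a median depth of 14370 UMIs and a median mitochondrial share of 8.32%, against 18690 and 5.24% in library 2. The 9 neutrophil markers summed to 722 CPM in colonocytes of library 1 and 1464 in library 2, with Ly6g at 327 and 858, and the 10 mononuclear phagocyte markers to 34.7 and 100.5, with none of either list at 0. In neutrophils themselves Ly6g stood at 334 and 403.5 CPM, below its level in colonocytes of library 2. The neutrophil marker sum is therefore not a measure of neutrophil RNA alone. The subclusters that held most colonocytes also differed, e2, e0 and e3 in library 1 and e1, e4 and e9 in library 2. In undifferentiated cells their markers Lgr5 and Smoc2 stood at 26.3 and 66.2 CPM in library 1 and 8.64 and 28.8 in library 2. The colonocyte marker Krt20 was at 62.2 and 107.6 CPM there. Within the undifferentiated subcluster e6, Krt20 was at 81.7 and 276 and Car1 at 258 and 584. A shared subtype name thus did not hold cell state fixed.

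The subtype names had been given to 16 subclusters of epithelium, of which 11 had at least 20 cells in each library. Ratios within these regroup mostly the same cells as the subtype ratios above and are no separate check of them. Gsdmc4 was higher in library 1 in all 11, from 5.47 times in the goblet subcluster e7 to 21.2 times in e8, with a median of 11.3 and every counting interval above 1. Gsdmc2 was higher in library 1 in all 11, from 2.38 to 29.99 times where both libraries had UMIs, and Gsdmc3 in 10, with no UMI in either library in the remaining one. The highest Gsdmc2 ratio, in e8, rested on 1 UMI in library 2 (interval 5.34 to 1189). The counting interval lay above 1 in 10 of the 11 for Gsdmc2 and in 6 for Gsdmc3. Gsdmd was past 2-fold in none of the 11, with ratios from 0.78 to 1.49. Gsdme ratios ran from 0.27 to 2.01, the highest in e8 from 4 UMIs in library 2, with an interval that held 1.

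The highest Gsdmc4 levels were in 2 colonocyte subclusters in both libraries. Subcluster e4, led by Myl7 and the growth factor gene Areg, had 493 CPM in library 1 (27 cells) and 43.6 in library 2 (196 cells). Subcluster e3, led by Hao2, the chemokine gene Ccl20 and the water channel gene Aqp4, had 463 CPM in library 1 (212 cells) and 74.4 in library 2 (53 cells). Gsdmc4 and Gsdmc2 were themselves among the 10 leading genes of e3, although the clustering had not used them. Subcluster e9, led by the proton pump gene Atp12a, had 391 and 26.9 CPM, and the unnamed e14, led by Gzma, 279.6 and 42.3 CPM from 20 and 22 cells. Among the 10 leading genes of e14, 6 were lymphoid markers, and the leukocyte gene Ptprc stood at 237 and 310 CPM. Its barcodes thus held lymphoid as well as epithelial RNA. In library 1 e9 stood next below e3 and e4, and in library 2 e14 did, close to e4. The Aqp8-rich surface subcluster e0 had 65.0 and 5.71 CPM, below the undifferentiated subcluster e6 at 82.0 and 13.9. In library 1, e3 held 39.6% of epithelial Gsdmc4 UMIs in 11.7% of epithelial cells, and in library 2, e4 held 46.0% in 16.6% of the cells. A further unnamed subcluster, e8, led by Prss22 and Ly6g, had 317 CPM in library 1 and 14.9 in library 2 from 22 cells.

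Gsdmd followed another order. Its highest levels were in e12, led by Lce3b, at 424 and 431 CPM, then in e9 at 339 and 327 and in e8 at 319 and 316. It was lower in e3, at 126 and 84.9 CPM, where Gsdmc4 was near its highest, and lowest in the goblet and undifferentiated subclusters e7, e5 and e6, at 44.3 to 52.2. Over the 11 subclusters the Pearson correlation of log2 levels of Gsdmc4 with Gsdmc2 was 0.97 in library 1 and 0.86 in library 2, and that with Gsdmd 0.40 and 0.10. The 11 points of a library share its depth and its free RNA, and these are descriptions.

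**Figure D2:**
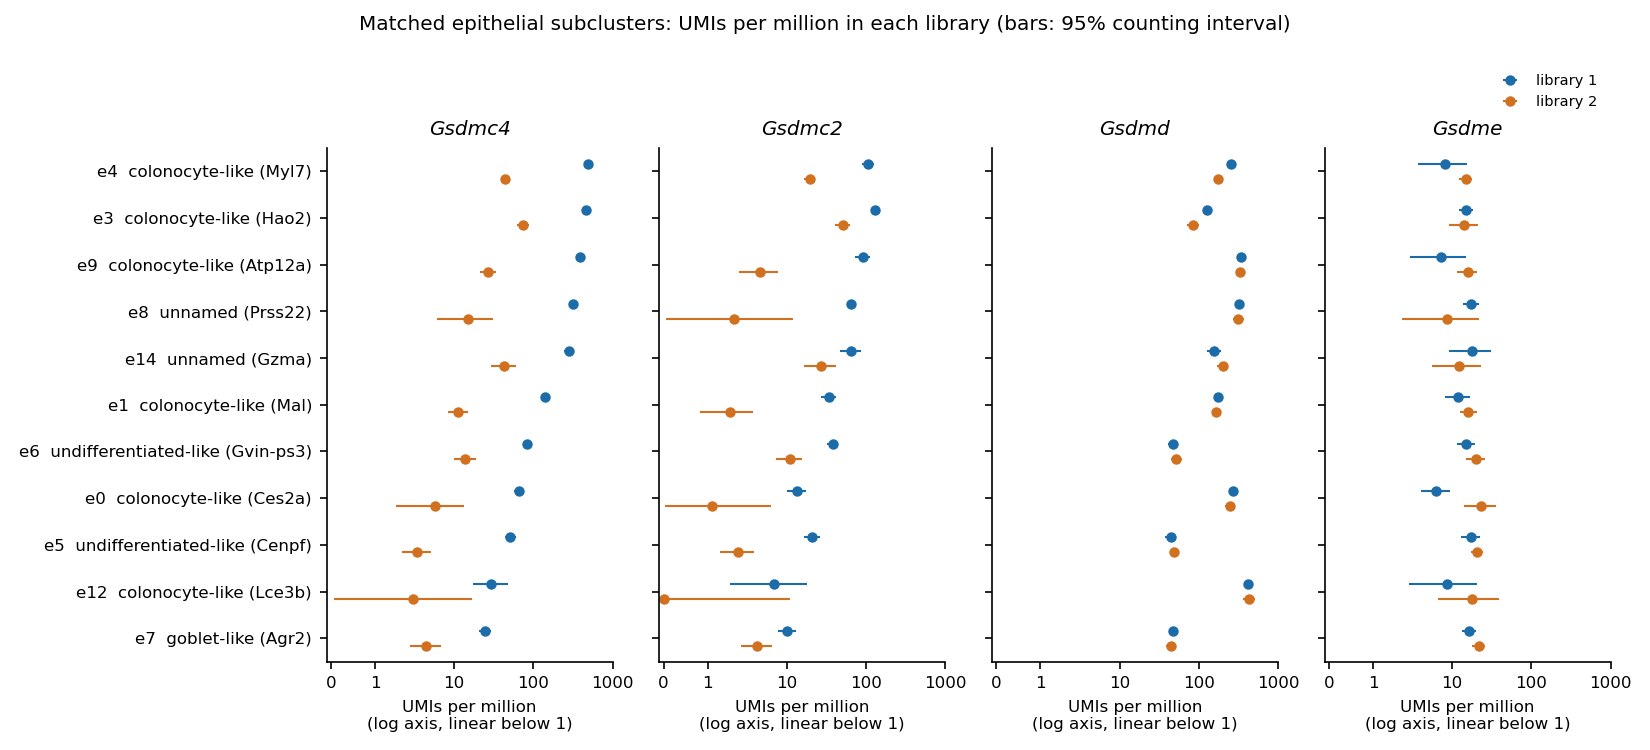
CPM (log axis, linear below 1) of 4 gasdermin genes in the 11 matched epithelial subclusters, named with their leading gene and ordered by Gsdmc4 in library 1, with 95% counting intervals. For Gsdmc4 the library 1 point lies above the library 2 point in all 11 rows, and for Gsdmd the 2 points nearly coincide in most rows.

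In e3 and e4 the library difference in Gsdmc4 was spread over many cells. In e3, a cell held a median of 9 Gsdmc4 UMIs in library 1 and 1 in library 2, at nearly equal median depths of 27410 and 26730 UMIs. The most in a cell was 123 and 21. At least 1 UMI was found in 93.4% and 50.9% of e3 cells, and at least 10 in 47.6% and 3.77%. In e4 the median was 13 and 0. In e0, e5, e6, e7 and e12 the median was 0 in both libraries. At least 1 UMI was found in 43.5% and 10.7% of e5 cells, 39.7% and 20.9% of e6 cells, and 27.7% and 7.69% of e7 cells. A single e7 cell of library 1 held 41 of the 140 Gsdmc4 UMIs there, so in such subclusters few cells carried much of the count. Gsdmd in e3 had medians of 3 and 1 UMI, and in e4 of 10 and 6.

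**Figure D3:**
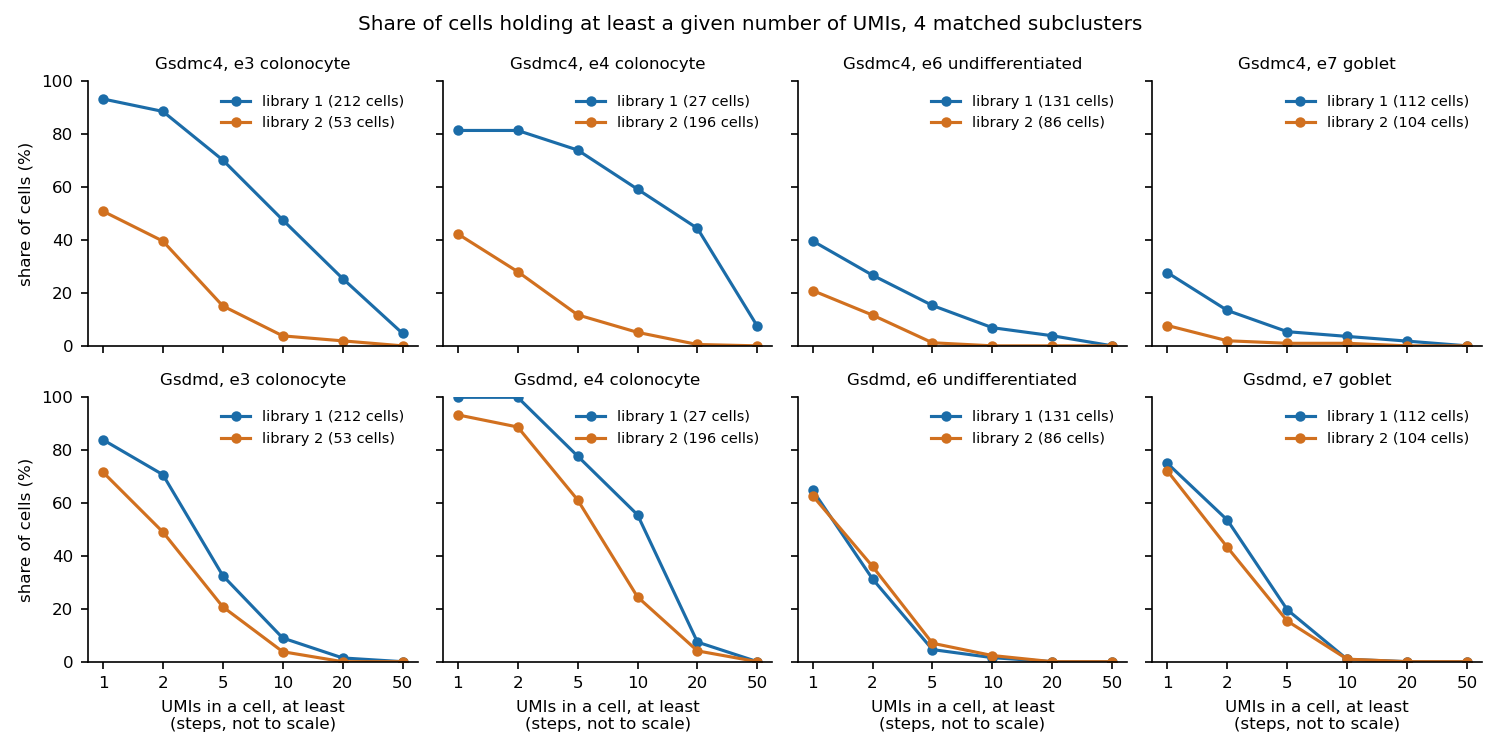
Share of cells (percent, vertical axis) with at least 1, 2, 5, 10, 20 or 50 UMIs (horizontal axis, in steps) of Gsdmc4 (upper row) and Gsdmd (lower row) in 4 matched subclusters of both libraries. At 10 Gsdmc4 UMIs the e3 curves stand at 47.6% in library 1 and 3.77% in library 2.

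Shares of positive cells were also compared at equal depth, with each cell thinned to 2000 UMIs and shallower cells, 12 and 20 of the colonocytes, left out. Gsdmc4 was then found in 22.6% of colonocytes of library 1 (20.2 to 25.2) and 4.35% of library 2 (2.99 to 6.08), against 54.5% and 24.5% before thinning. Gsdmd was found in 36.3% (33.5 to 39.2) and 35.2% (31.7 to 38.8), against 87.9% and 86.4% before. In lymphoid cells, taken as the background for Gsdmc4, the thinned share was 1.85% and 0.34%. In colonocytes Gsdmc4 exceeded that share in each library.

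Among thinned colonocytes of library 1, Gsdmc4 was found in 56.2% of the 73 cells with a Gsdmc2 UMI (44.1 to 67.8) and in 19.0% of the 1067 without (16.7 to 21.5). In library 2 it was 23.5% of 17 cells (6.81 to 49.9) and 3.06% of 719 (1.93 to 4.60). Within e3 of library 1 the shares were 64.7% of 34 cells (46.5 to 80.3) and 50% of 176 (42.4 to 57.6), with overlapping intervals. In its last 500 transcript bases Gsdmc4 shared 7.98% of its 50-base words and none of its 90-base words with other members. Any part of misassigned reads in these shares was not tested. For Gsdmd no such excess was seen: Gsdmc4 was in 19.1% of cells with a Gsdmd UMI and 22.8% of those without in library 1, and in 2.44% and 4.08% in library 2, with overlapping intervals.

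Among genes outside the family with a mean of at least 20 CPM, those most like Gsdmc4 over the 22 subcluster sums were Slc5a9 (Pearson r of log2 CPM 0.82), Gstk1 (0.80), Aldh1l1 (0.79), Vps28 (0.77) and Sema3b (0.77), out of 5666 genes. Gsdmc2, at 0.94, was more alike than any of these, and Gsdmd had 0.20. The points are 11 from each library, so part of this likeness is the library difference. Over the 20 class sums genes most like Gsdmd included Plekhf2 (0.93), Cept1 (0.91), Slc25a20 (0.89) and Arrdc4 (0.89), out of 6807.

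The genes that act upstream and downstream of gasdermins were taken from 5 lists of 44 genes in all, of which 38 passed the filter on low counts. Compared with the mean of the other classes, 19 of the 38 were higher in epithelium and 9 lower, with a median log2 difference of 0.68 against 0.11 over all genes, of which 36.2% were higher and 19.3% lower. In mononuclear phagocytes 26 were higher and 6 lower (median 1.34, all genes 0.10, 29.0% higher and 13.1% lower). In neutrophils 25 were higher and 2 lower (median 1.57, all genes -0.12, 28.3% higher and 26.2% lower). With plain CPM the neutrophil counts became 15 higher and 9 lower, as the median of all genes moved to -1.25, and the epithelial counts 18 and 9.

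The first list held the inflammasome sensors, which recognise microbial products or cell damage, and their adaptor Pycard, which recruits Casp1. Of the 12 tested of 13, 10 were higher in epithelium than in the mean of the other classes and 1 lower, with a median of 3.03. In mononuclear phagocytes 9 of them were higher and 2 lower (median 2.27), and in neutrophils 6 were higher and none lower (median 2.03), which became 4 and 3 with plain CPM. Nlrp6, a sensor known from intestinal epithelium, had 230 and 193 TMM-scaled CPM in epithelium and led the next class by 4.11 ± 0.28 (log2, edgeR adjusted p = 4.5e-09). Naip1, the sensor of bacterial secretion-needle protein, had 270 and 194 and a lead of 3.44 ± 0.28 (adjusted p = 2.4e-09). Nlrp9b had 24.1 and 13.7 and a lead of 2.92 ± 0.60 (adjusted p = 0.0086). Whether any class but epithelium brought Nlrp9b past the filter on low counts was not tested. Its call may therefore not be independent of that filter. These 3 sensors led the other classes in both libraries, and Nlrp9b lost its call with DESeq2 (adjusted p = 0.064, within a range from 0.017 over the alternatives).

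Of 7 activating proteases tested out of 8, 3 were higher in epithelium and 1 lower. Casp1 had 203 and 186 TMM-scaled CPM in epithelium, with a lead of 0.93 ± 0.20 (edgeR adjusted p = 0.00066). Casp4, the sensor of cytosolic lipopolysaccharide, was highest in neutrophils at 410 and 361, with a lead of 1.499 ± 0.252 that plain CPM reduced to 0.61 (adjusted p = 0.12, the highest of 4 alternatives, the lowest being 3.5e-05).

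Of the 8 genes for cargo, membrane rupture and membrane repair, 3 were higher in epithelium and 2 lower. Il18, the cytokine stored by epithelial cells, had 172 and 86.4 TMM-scaled CPM in epithelium, a lead of 1.42 ± 0.25. Il1a was highest in mononuclear phagocytes at 532 and 427, with a lead of 2.38 ± 0.31. Ninj1, which ruptures the membrane of dying cells, was highest there too at 219 and 208, with a lead of 1.03 ± 0.21 that missed the threshold with plain CPM (0.54, adjusted p = 0.054, against 0.0015 at the lowest of 4 alternatives).

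Of the type 2 cytokine list 6 of 10 genes were tested, and 2 were higher and 2 lower in epithelium. Retnlb, a goblet cell product, had 468 and 299 TMM-scaled CPM in epithelium and a lead of 2.97 ± 0.21. The receptor chain Il13ra1 and its signal transducer Stat6 were highest in neutrophils with TMM scaling, by 0.97 ± 0.19 and 1.05 ± 0.20, which plain CPM reduced to 0.09 and -0.09. Il25, Ang4, Alox15 and Pou2f3 were too low to be tested, as were Elane and Nlrp1a of the other lists. Of the 5 transcriptional regulators 1 was higher and 3 lower in epithelium, and the 1 was not higher with plain CPM. Irf1 led in neutrophils at 780 and 1541, by 1.87 ± 0.26, also with plain CPM. The lead of Irf2 in neutrophils (0.71 ± 0.20) was -0.56 with plain CPM and did not pass.

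The pathway genes were also set side by side between the libraries in colonocytes. Gsdmd's protease genes Casp1 and Casp4 had 239 and 262 CPM, and 125 and 76.4 CPM, in libraries 1 and 2, ratios of 0.91 and 1.64. Il18 had 205 and 133 CPM, a ratio of 1.54 (1.47 to 1.62), and Irf1 319 and 231, a ratio of 1.38. Stat6 had 30.2 and 30.4 CPM and Il13ra1 117.5 and 116.8. Il4 had 2 UMIs in colonocytes of library 1 and 1 in library 2, and Il13 had 0 in each. Of the 36 list genes with over 10 UMIs, 4 were past 2-fold and are named here after their values were seen. Il1b (30.1 and 70.4 CPM), Nlrp3 (0.97 and 2.81) and Il33 (0.51 and 5.78) were higher in library 2, and Ang4 was higher in library 1 from 10 and 2 UMIs, with an interval that held 1. Across classes Il1b and Nlrp3 had their highest mean in mononuclear phagocytes, without passing, and Il33 in fibroblasts. In colonocytes the phagocyte markers summed to 34.7 and 100.5 CPM and the fibroblast markers to 11.2 and 34.4. The part of RNA from those classes in these ratios was not tested.

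**Figure D4:**
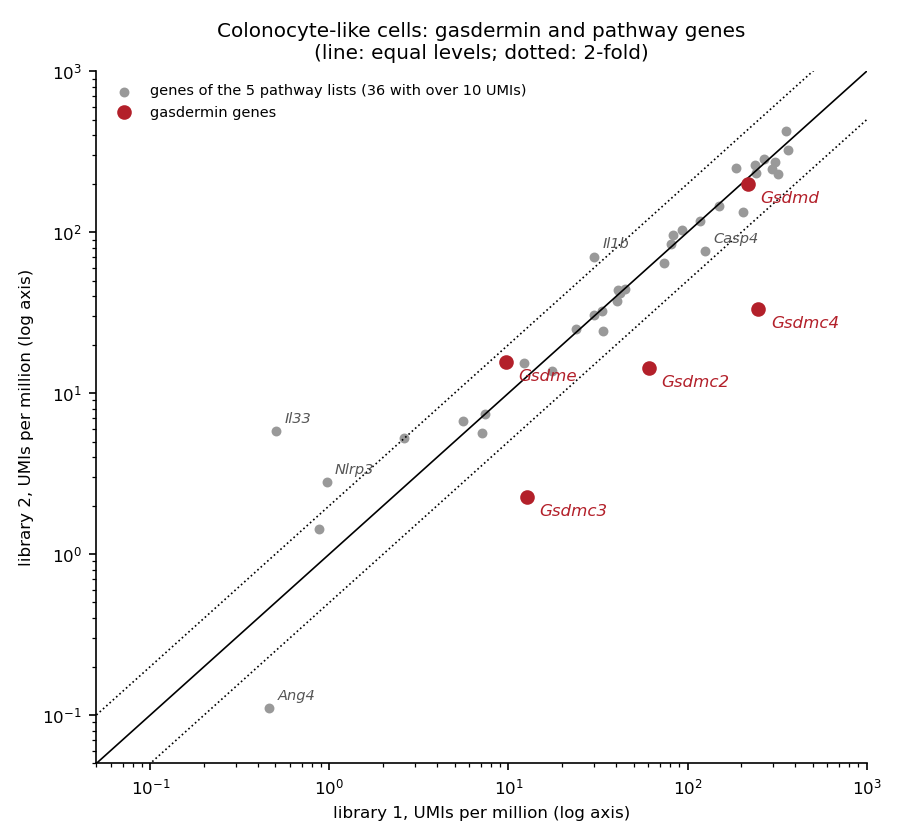
CPM in colonocytes of library 1 (horizontal, log axis) and library 2 (vertical, log axis) for 5 gasdermin genes in red and 36 genes of the pathway lists in grey, with a solid line at equal levels and dotted lines at 2-fold. Gsdmc2, Gsdmc3 and Gsdmc4 lie below the lower dotted line, while Gsdmd, at 218 and 198, lies on the solid line.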

How the data were processed

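The authors deposited matrices of UMI counts per gene and barcode for 2 libraries. They used Cell Ranger, version 8.0.0 per the submitters' processing notes and 7.0.0 per the file headers, with build mm10. The labels name both a 3' V3 capture kit and v2 library reagents. Of 55357 gene IDs, 52081 were found in GENCODE M21, which supplied coordinates and sequences.

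Barcodes with under 200 genes (36 and 9) or at least 20% mitochondrial UMIs (876 and 484) were removed, then those with the highest Scrublet scores at 0.8% per 1000 barcodes (323 and 748, scanpy 1.11.5). Clustering used 30 principal components of 2000 variable genes, 15 neighbours and the Leiden method at resolution 1.0, with gasdermin, pathway, mitochondrial, ribosomal, haemoglobin and immunoglobulin genes held out. A cluster kept a name if at least 3 of its markers were detected (10 CPM) and other classes' markers did not outnumber its own among its 10 leading genes. Otherwise it stayed unnamed, which left 195 and 198 cells, and 286 and 60 epithelial cells, unnamed.

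Counts were summed per library and class and fitted with edgeR 4.0.16 (TMM, filterByExpr, quasi-likelihood) and a library term (block), because the sums of 1 library share its tissue sample. The class fit had 20 sums and 9 residual degrees of freedom, the subclass fit 6 sums and 2. P-values were Benjamini-Hochberg adjusted over all genes tested and called under 0.05. Each SE is the log2 difference divided by the square root of its F statistic. On simulated counts of 14025 and 13364 genes, 79 of 100 genes with 2-fold and 100 of 100 with 4-fold changes were called in the class fit, and 63 and 100 in the subclass fit. Those calls set 1 class against the mean of the others, on counts simulated with a fixed spread and no difference between libraries. Source calls and calls between pairs of classes were not scored. DESeq2 1.42.0, other scalings, filters and cell sets were the alternatives. Ratios of libraries have exact conditional binomial intervals.

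The members and gene lists were chosen with earlier results of these data known. Every member is named. From each pathway list up to 3 genes called with epithelium, neutrophils or phagocytes as source were named by the size of the lead, and the 5 genes most correlated with Gsdmc4 and with Gsdmd. Of the genes this rule gives, 3 are not reported here.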

Additional observations from a re-analysis of the deposited data

Results flagged for a closer look

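Other gasdermin rows of the count tables lie outside the 6 members, and 5 of them held UMIs in kept cells. Gsdma had 91 UMIs in kept cells of both libraries. Of these, 81 were in 9 of the 30 enteroendocrine cells of library 1 (175.8 CPM, at most 24 in a cell) and 2 in 1 of the 12 of library 2, while the 1152 colonocytes of library 1 held 2. The pseudogenes of the gasdermin C cluster, Gsdmcl2 and Gsdmcl-ps, had 61 and 73 UMIs, of which subcluster e3 of library 1 held 25 each. Pjvk had 8 UMIs and Gsdma2 had 4, too few to describe. Gsdma3 and Gsdmcl1 had 0. There were no control samples to set these against, so each was taken up for being above the limit of 3 UMIs that a count of 0 allows.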

How the results depend on the processing

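Without the library block, which pairs the classes of a library, 1 member kept a source class in place of 3, and 1 member in place of 4 was higher in colonocytes than in undifferentiated cells. The 7.46-fold library ratio of Gsdmc4 in colonocytes was 8.20 with at least 500 genes per cell, 8.78 with a 10% mitochondrial limit, 5.73 with no doublets removed, 5.19 without the subcluster e3 (added after the data were seen) and 5.85 as UMIs per cell. It was 9.58 with equal weight for each subcluster, and 5.47 and 21.2 in the subclusters with the lowest and highest ratios. The thinned share of colonocytes with Gsdmc4 was 13.2% and 34.7% in library 1 and 2.92% and 7.14% in library 2 with 1000 and 4000 UMIs, and 7.19% in library 2 with no doublets removed. For Gsdmd it was 22.5% and 59.6% in library 1, 20.8% and 54.8% in library 2, and 24.9% in library 2 with no doublets removed. The epithelial lead of Gsdmd was reversed with no doublets removed (-0.39) and with the 10% mitochondrial limit (-0.18), and the colonocyte difference of Gsdme with plain CPM (-0.54), a scaling added after the data were seen. Testing every gene with a count let Gsdmd's epithelial lead of 0.54 pass (edgeR adjusted p = 0.018, within a range of 0.0012 to 0.864). The cause of these changes was not tested. Without library 2 the neutrophil lead of Gsdme was 1.99. Depth limits Gsdmc, at 3 UMIs, and the gasdermin C genes in the rarer classes, where single UMIs set the level.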
